A study of Saccharomyces cerevisiae with 14 samples.

Results

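RPS9A and RPS9B are the 2 genes of budding yeast (Saccharomyces cerevisiae) for ribosomal protein S9, called uS4 across species. They were picked by gene name, and make up 2 of 12449 features in the deposited read count table and 2 of 187 introns with deposited spliced fractions. The RNA came from strain W303U, mating type MATa. Its marker alleles are can1-100, ade2-1, trp 1-1, leu2-3, 112 and his3-11, 15 as the labels spell them. All groups shared this strain, and the cells grew at 30 °C and OD600 0.8 in SD medium lacking uracil and leucine. In 3 groups newly made RNA was marked with 500 µM 4-thiouracil (4tU), an analogue of uracil that enters new transcripts, for 1.5, 2.5 or 5 min and was captured through its thiol group (3 libraries each, timecourses 1, 2 and 3). The other groups were rRNA-depleted total RNA of the same timecourses and RNA captured from cells titled as not labelled. Total RNA had 3 libraries, for which the labels also give 500 µM 4tU but no labelling time. The unlabelled group had 2 libraries, titled as timecourses 1 and 3. These were numbered 1 and 2 in the deposited columns and so matched here to no timecourse. The source label of 1 unlabelled library reads as depleted total RNA, and its title set the group.

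Rps9 binds the rRNA of the small ribosomal subunit early in its assembly and lies near the site where the messenger RNA enters. Like many yeast ribosomal protein genes, both copies stem from the ancient genome duplication and hold an intron close to the start codon. A transcript is first made with the intron, the spliceosome reads the 5′ splice site, the branch site and the 3′ splice site, and the exons are then joined. For several ribosomal protein genes, the protein itself is known to hold back splicing of its own transcript, and the RPS9A intron has been described as sensitive to Rps9 levels in this way.

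The splice signals are shown first because the copies share the 5′ splice site and differ at the branch site and the 3′ splice site. In the R64 reference (RefSeq, strain S288C, not the strain sampled), RPS9A (YPL081W) lay on the + strand of chromosome XVI from 404950 to 406044. Its first exon, 404950 to 404956, was followed by an intron from 404957 to 405457 (501 bases) and a second exon from 405458 to 406044. RPS9B (YBR189W) lay on the + strand of chromosome II from 604508 to 605508, with a first exon from 604508 to 604514, an intron from 604515 to 604927 (413 bases) and a second exon from 604928 to 605508. No annotated gene overlapped either of them. The first stretch printed for each gene is the first exon with the start of the intron, and the second runs from before the branch site into the second exon. Capitals mark the 6 bases of the 5′ splice site in the first stretch, and the 7 bases of the branch site and the 3 bases of the 3′ splice site in the second.
RPS9A, chrXVI:404950-404996, + strand: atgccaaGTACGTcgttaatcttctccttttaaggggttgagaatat
RPS9B, chrII:604508-604554, + strand: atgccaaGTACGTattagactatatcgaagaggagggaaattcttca
RPS9A, chrXVI:405402-405469, + strand: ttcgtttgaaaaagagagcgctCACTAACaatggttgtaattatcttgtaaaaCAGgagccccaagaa
RPS9B, chrII:604869-604939, + strand: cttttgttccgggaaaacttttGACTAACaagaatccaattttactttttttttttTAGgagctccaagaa

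Both genes had the 5′ splice site GTACGT, which 30 of the 306 introns in the deposited feature table shared (9.80%) and 15 of its 103 ribosomal protein introns (14.6%). The commonest 5′ splice site, GTATGT, stood in 224 of the 306 introns (73.2%). At the branch site both departed from TACTAAC, the form in 250 introns (81.7%) and in 96 of the 103 ribosomal protein introns (93.2%). The RPS9A branch site CACTAAC was listed for 9 introns (2.94%), 2 of them in ribosomal protein genes. The RPS9B branch site GACTAAC was listed for 15 introns (4.90%), and RPS9B was the 1 ribosomal protein gene among them. The branch site lay 29 bases from the 3′ splice site in RPS9A and 32 in RPS9B, as deposited.

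The authors' deposited splice-site scores ranked the RPS9A intron low among ribosomal protein introns at the 5′ splice site and the branch site. The 5′ splice site score was 32.4 for RPS9A and 54.4 for RPS9B, against a ribosomal protein median of 71.1, and 2 and 5 of the 103 introns scored lower. The branch site score was 61.3 for RPS9A and 78.4 for RPS9B, against a median of 89.2. At the branch site 2 ribosomal protein introns scored below RPS9A and 13 below RPS9B. At the 3′ splice site RPS9B scored 80.1, above 88 of the 103 introns, and RPS9A scored 53.7, above 25 of them. Both genes have the same 6 bases at the 5′ splice site, so their different scores there depend on letters outside those bases or on a scoring method not stated in the labels or headers.

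The RPS9A intron was also long and had a strongly negative deposited folding energy, the free energy ΔG computed for its folded RNA (unit not in the file header). It was longer than 90 of the 103 ribosomal protein introns, and RPS9B was longer than 59 of them (median 405 bases). The folding energy was −137.5 for RPS9A and −82.4 for RPS9B, with a ribosomal protein median of −79.3. Only 2 ribosomal protein introns had a lower value than RPS9A, while 44 had a lower value than RPS9B. Per base, RPS9A stood at −0.2745, with 2 of the 306 introns lower, and RPS9B at −0.1995, with 81 lower.

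**Figure D1:**
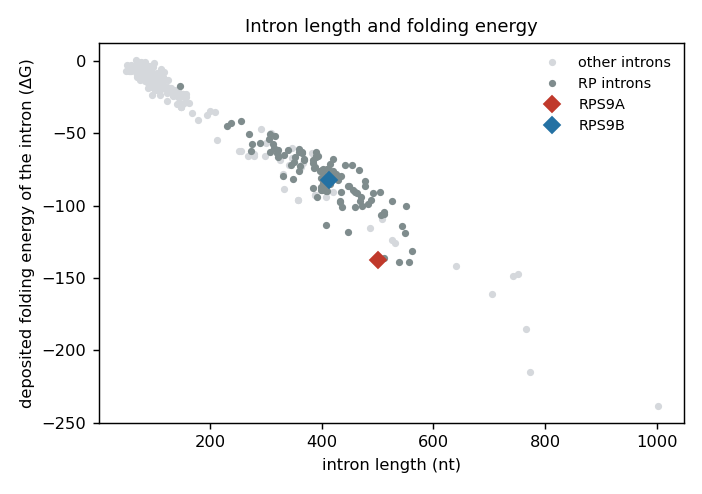
Deposited folding energy (ΔG, unit not in the file header) against intron length in bases, 1 point per intron for 306 introns, with ribosomal protein introns in dark grey. RPS9A at 501 bases and −137.5 sits below nearly all introns of its length, and RPS9B at 413 bases and −82.4 lies within the cloud of ribosomal protein introns.

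Parts of the second exons were alike enough that some reads can be hard to assign to a copy. Of 581 aligned bases of exon 2, 533 were identical (91.7%), and the longest identical run was 76 bases. Of all 25-base windows of the RPS9B second exon, 91 of 557 (16.3%) also stood in the RPS9A second exon, and of the 50-base windows 27 of 532 (5.08%). The introns matched at 256 of 388 aligned bases (66.0%), with a longest identical run of 26. How reads that match both places were counted is not stated in the labels or headers, so the split of exon reads between the copies is uncertain.

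Library totals ran from 3618310 to 65173280 counts. rRNA took 2.34% to 28.7% of the counts in labelled and total RNA libraries and 51.2% and 55.4% in the unlabelled ones. Features at 0 made up 21.7% and 24.0% in the total RNA libraries of timecourses 1 and 3 against 3.45% in that of timecourse 2. Behind the ratios in total RNA stood 218, 5610 and 1180 counts of RPS9A and 1079, 29204 and 2621 counts of RPS9B in timecourses 1, 2 and 3. The part of depth and of rRNA share in the differences was not tested.

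Relative to RPS9B in the same library, RPS9A was higher in newly made RNA than in total RNA. RPKM is the authors' read density per feature length and library size, but the library sizes behind it are not given. The RPS9A to RPS9B ratio of RPKM was 0.938 ± 0.163 (SD, n = 3) at 1.5 min and 0.225 ± 0.117 (n = 3) in total RNA. The ratio is set out first because it needs no scaling between libraries. In timecourses 1, 2 and 3, it was 0.958, 0.766 and 1.09 at 1.5 min. It was 0.649, 0.576 and 0.953 at 2.5 min and 0.751, 0.441 and 0.657 at 5 min. The total RNA ratios were 0.161, 0.153 and 0.360, so the lowest labelled library stayed above the highest total RNA library.

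Relative to total RNA, the ratio was 4.47-fold higher at 1.5 min, 3.42-fold at 2.5 min and 2.90-fold at 5 min, which are log2 differences of 2.16, 1.77 and 1.54. Each gave p = 0.1 in an exact two-sided permutation test, the smallest that 3 libraries against 3 allow. Over all 9 labelled libraries the ratio was 3.54-fold higher than in the 3 total RNA libraries (log2 difference 1.82), higher in 9 of 9, with an exact permutation p of 0.00909, the smallest possible, and 0.0364 after Benjamini-Hochberg adjustment over the 4 comparisons. With the timecourse as a block the exact p was 0.0156, again the smallest possible, and 0.0625 after adjustment. Of 57 paralog pairs of ribosomal protein genes, 17 (29.8%) had labelled and total RNA ratios that did not overlap, so the separation was shared by many pairs. By the size of the difference RPS9 ranked 9 of the 57, with a median size of 0.75 on the log2 scale.

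The mean ratio was lower at each later labelling time, falling from 0.938 through 0.726 ± 0.200 to 0.617 ± 0.159 (SD, n = 3 each). The 1.5 and 5 min libraries did not overlap, whereas the 2.5 min libraries overlapped both. The log2 difference was −0.63 for 5 against 1.5 min, with an exact permutation p of 0.1, the smallest possible, and 0.3 after adjustment over the 3 comparisons of times. For 2.5 against 1.5 min it was −0.39 (exact p = 0.2) and for 5 against 2.5 min −0.24 (exact p = 0.6). Within timecourses the ratio was lower in 3 of 3 for 5 against 1.5 min and for 2.5 against 1.5 min, and in 2 of 3 for 5 against 2.5 min. The exact sign-flip permutation p was 0.25 for the first and the second, the smallest that 3 timecourses allow, and 0.5 for the last. None of these comparisons passed the threshold, and with 3 libraries a time neither test could have done so.

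The unlabelled libraries, which hold RNA that reached the beads without a label, gave ratios of 0.173 and 0.354, computed from counts and the length ratio that the other 12 libraries imply. Both lay inside the range of total RNA and below every labelled library. They are given as values and entered no test of the ratio.

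**Figure D2:**
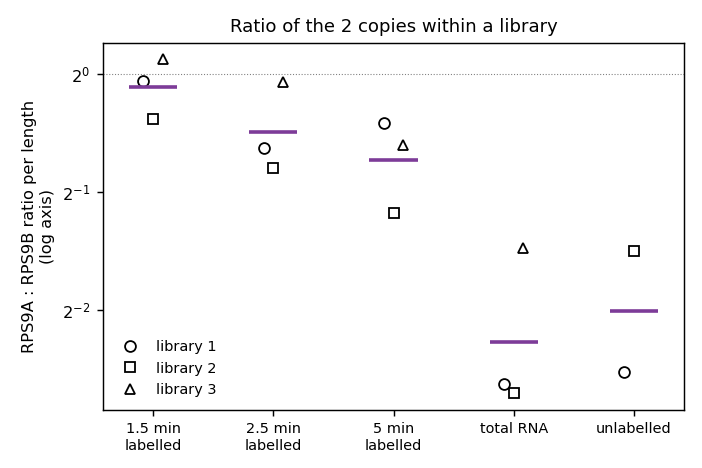
Ratio of RPS9A to RPS9B per length in each library (log axis), from RPKM or, in the unlabelled group, from counts and the implied length ratio, with 1 point per library and a bar at the geometric mean of the group; marker shapes give the timecourse, or library 1 and 2 for the unlabelled group. All 9 labelled libraries lie at 0.441 or above, and the total RNA and unlabelled libraries lie at 0.360 or below.

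Levels per length showed which copy moved on the authors' scaling. RPS9A stood at 189, 231 and 256 RPKM in the libraries of timecourses 1, 2 and 3 at 1.5 min. It stood at 136, 231 and 200 RPKM at 2.5 min, and at 120, 151 and 112 RPKM at 5 min. Total RNA held 31.5, 59.6 and 38.1 RPKM. By group mean the order was 1.5 min (226 ± 33.4 RPKM, SD, n = 3), 2.5 min (189 ± 48.3), 5 min (128 ± 20.4) and total RNA (43.0 ± 14.7). Neighbours in that order overlapped among the labelled groups, while the 5 min libraries all lay above total RNA.

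RPS9B RPKM overlapped between all 4 of these groups. It was 198, 302 and 235 RPKM at 1.5 min, and 210, 401 and 210 RPKM at 2.5 min. It was 160, 342 and 171 RPKM at 5 min, and 195, 388 and 106 RPKM in total RNA. Timecourse 2 was the highest library of every one of these groups. The group means lay between 224 ± 102 (5 min) and 274 ± 110 (2.5 min; SD, n = 3), with 245 ± 52.9 at 1.5 min and 230 ± 144 in total RNA.

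Set among the 57 genes of the small subunit, RPS9A had a middling level in labelled RNA and one of the lowest in total RNA. Its mean RPKM exceeded that of 33 of them at 1.5 min, 27 at 2.5 min, 22 at 5 min and 3 in total RNA. RPS9B exceeded 38, 37, 33 and 30 of them in the same groups. The median small-subunit gene had 177 RPKM at 1.5 min and 216 in total RNA. The lengths and library sizes behind the deposited RPKM are not given. The counts in those 12 libraries imply a length 1.25 times as long for RPS9A as for RPS9B. The level of the ratio carries that factor while its change between groups does not.

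**Figure D3:**
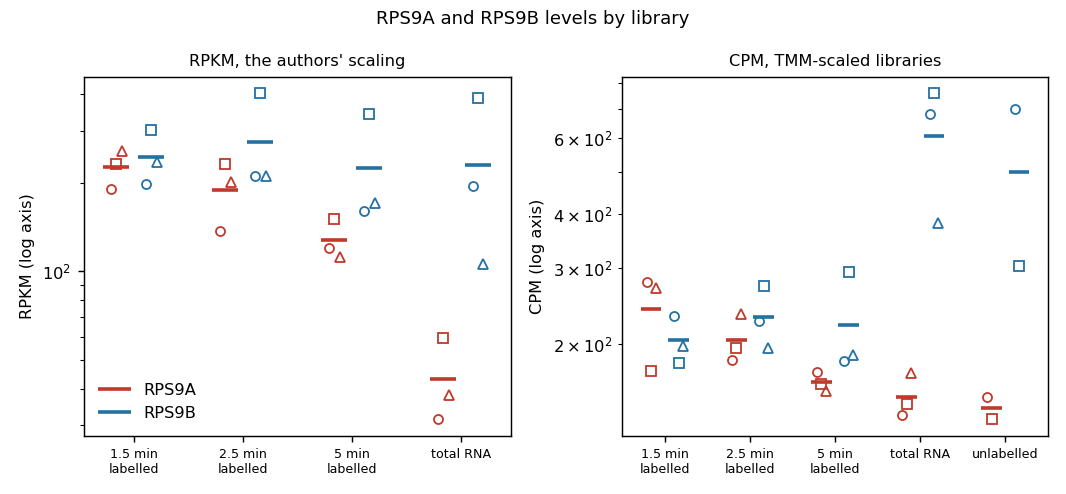
Levels of RPS9A (red) and RPS9B (blue) in each library (log axes), as the authors' RPKM at left (no unlabelled group) and as CPM, counts scaled to library size, after TMM scaling at right, with 1 point per library, bars at the group means and marker shapes for libraries 1, 2 and 3. In RPKM RPS9A is high in labelled RNA (112 to 256) and low in total RNA (31.5 to 59.6), while on the TMM scale RPS9B is high in total RNA (381 to 758.5 CPM) and RPS9A spans 134 to 279 CPM over all groups.

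Scaled so that most features stay level, the larger difference lay in RPS9B. TMM factors, which set libraries to the bulk of features, gave in CPM (counts scaled to library size) for RPS9B 233, 181.5 and 198.5 CPM at 1.5 min and 678.5, 758.5 and 381 CPM in total RNA, and the groups did not overlap. RPS9A had 279, 174 and 270.5 CPM at 1.5 min and 137, 146 and 172 CPM in total RNA. These groups did not overlap either, but the lowest 1.5 min library (174) lay close to the highest total RNA library (172). Later times were similar for RPS9B, with 227, 272 and 196 CPM at 2.5 min and 183.5, 293 and 189 CPM at 5 min, all below total RNA. For RPS9A they were 184, 196 and 234 CPM at 2.5 min and 172.5, 162 and 156 CPM at 5 min, where it overlapped total RNA.

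RPS9B was lower in labelled than in total RNA at all 3 times by edgeR's quasi-likelihood test with Benjamini-Hochberg adjustment over all features, though it was higher, and not called, when libraries were scaled by size alone. Its log2 fold change was −1.57 ± 0.35 (SE) at 1.5 min (adjusted p = 0.00963, edgeR), −1.39 ± 0.34 at 2.5 min (0.02) and −1.45 ± 0.34 at 5 min (0.0198). Of all features tested, 18.1% were called in either direction and 11.4% as lower at 1.5 min. The shares were 15.1% and 10.2% at 2.5 min and 11.7% and 8.47% at 5 min. The 2.5 min call was lost without any 1 of the 2.5 min libraries (adjusted p = 0.0705, 0.051 and 0.0864 without timecourse 1, 2 and 3, edgeR). The 5 min call was lost without the 5 min library of timecourse 1 or 3 (adjusted p = 0.119 and 0.0853, edgeR).

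RPS9A did not pass that test at any time. Its log2 fold change against total RNA was 0.67 ± 0.28 at 1.5 min (adjusted p = 0.11, edgeR), 0.43 ± 0.28 at 2.5 min (0.293) and 0.11 ± 0.27 at 5 min (0.817). With the timecourse as a block, the 1.5 min value was 0.65 and passed the threshold (adjusted p = 0.0495, edgeR), and DESeq2 gave 0.72 (adjusted p = 0.0282). Scaled by library size alone, RPS9A was higher by 2.64, 2.41 and 1.90 on the log2 scale at the 3 times and was called each time, while RPS9B stood at 0.31, 0.50 and 0.25. On that scale the median feature itself stood at 1.97, 2.04 and 1.86. The features called split into 773 higher and 1311 lower at 1.5 min on the TMM scale, against 6587 and 90 by library size alone. At 2.5 min the split was 559 and 1174 against 6801 and 73, and at 5 min 375 and 975 against 6046 and 65.

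On the TMM scale most genes of the small subunit moved as RPS9B did, and RPS9A did not. Against total RNA, 47 of the 57 small-subunit genes were called lower at 1.5 min, 43 at 2.5 min and 42 at 5 min by edgeR, with median log2 fold changes of −2.11, −1.88 and −1.73 beside 0.03, 0.11 and 0.13 over all features. RPS14B, 1 copy of the gene for a small-subunit protein, was the 1 gene called higher at 1.5 and 2.5 min (named after its values were seen), and none was called higher at 5 min. Of the 76 large-subunit genes, 56, 54 and 51 were called lower at the 3 times (medians −2.01, −1.80 and −1.71). RPL22B was the 1 large-subunit gene called higher, at 1.5 min. The fold change of RPS9A exceeded those of 55, 55 and 54 of the 57 small-subunit genes at the 3 times, and that of RPS9B exceeded 44, 43 and 39 of them. These calls depend on the scaling, since by library size alone 90 features of any kind were called lower at 1.5 min. Many of these genes have near-identical copies, so how their reads were split is uncertain.

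Genes known for splicing that is held back by their own product gave values on the same side as RPS9A (itself not called) at 1.5 min, with 1 exception. The median feature stood at 0.03, so many features lay on that side. This list of 5 held RPL30, RPS14B and RPL22B for ribosomal proteins, YRA1 for an mRNA export factor and DBP2 for an RNA helicase. At 1.5 min 3 of the 5 were called higher than in total RNA by edgeR, beside 773 of all 11513 features tested. RPS14B rose by 2.44, RPL22B by 1.27 and YRA1 by 0.89 on the log2 scale (adjusted p = 0.00164, 0.0399 and 0.0302, edgeR). DBP2 stood at 0.78 and RPL30 at −0.42, neither called. RPS14B alone was called at 2.5 min (1.37, adjusted p = 0.0278, edgeR), where RPL30 stood at −0.96, DBP2 at −0.30, YRA1 at 0.52 and RPL22B at 1.00. None was called at 5 min, where values ran from −1.22 (RPL30) to 0.71 (RPS14B).

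Between labelling times neither copy was called. The edgeR log2 fold change of 5 against 1.5 min was −0.56 ± 0.28 for RPS9A (adjusted p = 0.806) and 0.12 ± 0.34 for RPS9B (adjusted p = 0.988). For 2.5 against 1.5 min it was −0.23 for RPS9A and 0.18 for RPS9B, and for 5 against 2.5 min −0.33 and −0.06 (adjusted p = 1 for all 4, edgeR). The share of features that edgeR called was 0.0% for each pair of times. Before adjustment 101, 754 and 117 features had p below 0.05 for 2.5 against 1.5, 5 against 1.5 and 5 against 2.5 min. DESeq2 called 139 features for 5 against 1.5 min and 0 for the other pairs.

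Against the unlabelled libraries neither copy was called at any time on the TMM scale. RPS9A stood at 0.76 ± 0.36, 0.52 and 0.19 on the log2 scale at 1.5, 2.5 and 5 min (adjusted p = 0.22, 0.427 and 0.804, edgeR). RPS9B stood at −1.29 ± 0.46, −1.11 and −1.17 (adjusted p = 0.11, 0.189 and 0.176, edgeR). The shares of features called were 4.79%, 2.81% and 0.342%. By library size alone RPS9A was called at 3.08, 2.84 and 2.33, and RPS9B lay above the unlabelled libraries at 1.21, 1.39 and 1.14 and was called at 2.5 min (adjusted p = 0.0422, edgeR), where the median feature stood at 2.26, 2.27 and 2.13. For unlabelled against total RNA, RPS9A stood at −0.09 and RPS9B at −0.28 (adjusted p = 0.965 and 0.894, edgeR), and the share called by edgeR was 0.0%. Before adjustment 1233 features had p below 0.05, and DESeq2 called 102. Without unlabelled library 1 edgeR called 462 features, and the RPS9B value was −1.01. The unlabelled RPS9B values lay far apart at 697 and 303 CPM.

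The spliced fraction, the authors' deposited share of transcripts that have lost the intron, was lower for RPS9A than for RPS9B in every labelled library. At 1.5 min it was listed for RPS9A at 0, 0.201 and 0.008 in timecourses 1, 2 and 3, and for RPS9B at 0.077, 0.552 and 0.461. At 2.5 min it was 0.046, 0.636 and 0.06 for RPS9A and 0.622, 0.813 and 0.579 for RPS9B. At 5 min it was 0.523, 0.747 and 0.172 for RPS9A and 0.81, 0.901 and 0.773 for RPS9B. Timecourse 2 was highest for both genes at every time, and RPS9A in timecourse 3 was still at 0.172 at 5 min. Between 1228 and 9534 reads stood behind each RPS9A value, and between 1757 and 8906 behind each RPS9B value, per the file headers. At 1.5 min in timecourse 1, the deposited 95% interval was 0.139 for the RPS9B value of 0.077 and 0.003 for the RPS9A value of 0. For RPS9A at 2.5 min it was 0.141, 0.046 and 0.095 in timecourses 1, 2 and 3. Whether the copies differed in that 1.5 min library is thus uncertain.

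Within a library RPS9A was lower by 0.355 ± 0.194 in spliced fraction (SD, n = 9 libraries of 3 timecourses), with differences from −0.601 to −0.077. It was lower in 9 of 9 libraries, with an exact two-sided sign-flip permutation p of 0.00391, the smallest that 9 libraries allow. The smallest of these differences, −0.077, was that of the 1.5 min library of timecourse 1, where the RPS9B interval was 0.139. Over the means of the 3 timecourses, used as the replicate block, the mean difference was −0.355 with an exact permutation p of 0.25, the smallest that 3 allow. By time (n = 3 each) the difference was −0.294 ± 0.194 (SD) for 1.5 min, −0.424 ± 0.216 for 2.5 min and −0.347 ± 0.230 for 5 min. At steady state, 1 authors' value without replicates, RPS9A was at 0.793 and RPS9B at 0.948, a difference of −0.155. A deposited 95% interval of 0.021 came with the first and 0.006 with the second, and whether it spans the whole interval or 1 side of it is not stated.

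**Figure D4:**
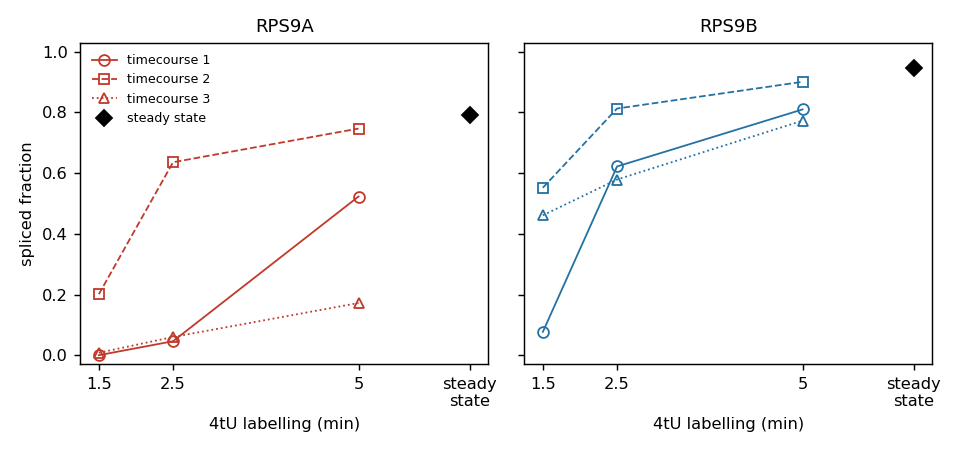
Deposited spliced fraction of the RPS9A intron (left) and the RPS9B intron (right) against labelling time in min, 1 line per timecourse, with the single steady-state value as a black diamond. RPS9A starts between 0 and 0.201 and reaches 0.172 to 0.747 at 5 min, while RPS9B starts between 0.077 and 0.552 and reaches 0.773 to 0.901.

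A difference of this kind between copies was common among ribosomal protein genes, and that of RPS9 was among the wider ones. Of 40 paralog pairs with an intron value for both copies, 22 (55.0%) differed one way in 9 of 9 labelled libraries. RPS9 ranked 6 of the 40 by mean size, and the median size was 0.111. The widest pairs were RPS14A and RPS14B (0.901) and RPL22A and RPL22B (0.832). The narrowest were RPL40A and RPL40B (0.003) and RPS10A and RPS10B (0.00511).

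The unspliced fraction (1 minus the spliced fraction) of RPS9B differed by −0.465 ± 0.125 (SE) between 5 and 1.5 min in limma over 187 introns and was called lower at 5 min (adjusted p = 0.0237). That of RPS9A differed by −0.411 ± 0.196 and was not called (adjusted p = 0.122, limma); with the timecourse as a block it was called at the same size (adjusted p = 0.026, limma). Of all introns 43.3% were called for these times, 79 as lower and 2 as higher, so the call of RPS9B was a common one. It was lost without each timecourse in turn (adjusted p from 0.0588 to 0.135, limma), when 9 to 50 introns were called in place of 81.

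Between neighbouring times neither copy was called. For 2.5 against 1.5 min the unspliced fraction differed by −0.178 in RPS9A and −0.308 in RPS9B (adjusted p = 0.687 and 0.188, limma), where 4.81% of introns were called, or 25 introns in place of 9 with the timecourse as a block. For 5 against 2.5 min it differed by −0.233 and −0.157 (adjusted p = 0.448 and 0.439, limma). Without timecourse 2 the RPS9A value was −0.049 for 2.5 against 1.5 min, and without timecourse 1 it was −0.112 for 5 against 2.5 min. With all timecourses, the share of introns that limma called for 5 against 2.5 min was 0.0%, with 31 introns at p below 0.05 before adjustment. On the logit scale 0 introns were called for these times, and with the block 15.

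Among the introns of 85 ribosomal protein genes, RPS9A was near the bottom at every time and RPS9B in the lower part. Over the 3 times, the group means of RPS9A were 0.0697 ± 0.114, 0.247 ± 0.337 and 0.481 ± 0.290 (SD, n = 3), with 3, 4 and 5 ribosomal protein introns below it and 1 at steady state. RPS9B was at 0.363 ± 0.252, 0.671 ± 0.125 and 0.828 ± 0.0659, with 19, 20 and 21 below it and 13 at steady state. The median ribosomal protein intron stood at 0.679, 0.840, 0.915 and 0.982. Against all 187 introns RPS9A was less extreme, with 26, 41 and 50 introns below it at the 3 times and 35 at steady state. Of the 35 small-subunit introns, 1 was below RPS9A at each labelled time and 0 at steady state.

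**Figure D5:**
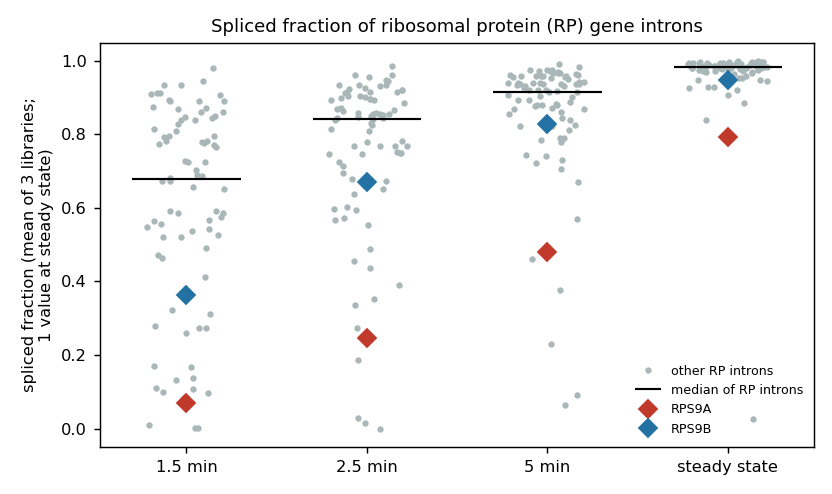
Spliced fraction of ribosomal protein gene introns (mean of 3 libraries at each labelling time, 1 authors' value at steady state), with 1 grey point per intron, a bar at the median of 85 introns, and RPS9A and RPS9B as diamonds. The median goes from 0.679 to 0.982, RPS9A from 0.0697 to 0.793 and RPS9B from 0.363 to 0.948.

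The list of genes with self-regulated splicing lay on both sides of RPS9A at steady state and mostly below it during labelling. RPL30 had mean spliced fractions of 0.009, 0.0297 and 0.229 at the 3 times and 0.907 at steady state. RPS14B stood at 0.00133, 0.000333 and 0.0637, with 0.84 at steady state, and YRA1 at 0.0837, 0.124 and 0.241, with 0.707. DBP2 stood at 0.236, 0.194 and 0.183 and reached 0.794 at steady state, and RPL22B stayed at 0.00133, 0.0143 and 0.0907 with 0.027 at steady state. At 5 min all 5 had means below the 0.481 of RPS9A. In limma none of the 5 was called between 5 and 1.5 min, whereas 22 of 35 small-subunit and 32 of 50 large-subunit introns were called with a lower unspliced fraction.

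The authors also deposited an area under the splicing curve for 117 introns. RPS9B had 0.721, with 45 introns below it and a median of 0.79. RPS9A was not among the listed introns.

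Deposited values for gene segments, 1 per group and so without replicates, showed the intron itself. The intron to exon 2 ratio of RPS9A was 1.99 at 1.5 min, 0.995 at 2.5 min, 0.688 at 5 min and 0.636 in total RNA. For RPS9B it was 1.09, 0.480, 0.243 and 0.100 in the same order. The ratio of RPS9A was higher than that of RPS9B in every group, and the median over 84 ribosomal protein genes was 0.603, 0.297, 0.141 and 0.0140. In total RNA 2 of the 84 genes exceeded RPS9A and 10 exceeded RPS9B. The joined exon junction, relative to the exon 1 to intron boundary, was 0.0309, 0.0563, 0.0909 and 0.227 for RPS9A in the same order. For RPS9B it was 0.548, 0.887, 1.70 and 11.8. The RPS9A junction thus stayed below the boundary value in total RNA, while the deposited spliced fraction of RPS9A was 0.793 at steady state. How the segment values were scaled is not stated, and the cause of this disagreement was not tested.

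The segments also separated the exons from the introns of the pair. For exon 2 the RPS9A to RPS9B ratio was 0.631, 0.550 and 0.473 at the 3 labelling times and 0.169 in total RNA. For the intron it was 1.16, 1.14 and 1.34, and 1.08 in total RNA. The exon 2 ratio thus differed between labelled and total RNA in the same direction as the RPKM ratio, whereas the intron ratio lay between 1.08 and 1.34 in these groups. In the unlabelled group the exon 2 ratio was 0.239 and the intron ratio 0.9. Whether the gene counts include intron reads is not stated in the labels or headers.

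The copies were not each other's closest match in either measure. Over log2 CPM in 14 libraries, each feature centred on its mean, RPS9A was most like SGT1, YRA1 and YMR178W (root mean square differences 0.234, 0.238 and 0.248 among 6478 protein-coding features). RPS9B was most like RPL34A, YPR063C and RPL34B (0.197, 0.200 and 0.203). RPS9B ranked 3218 in likeness to RPS9A, at 0.942. Over spliced fractions in the 9 labelled libraries, the introns most like RPS9A were those of RPL2A, RPL28 and RPL18B (0.0965, 0.152 and 0.157 among 186). Those most like RPS9B included RPL27A and RPL34B (0.0797 and 0.119), and RPS9B ranked 96 in likeness to RPS9A, at 0.399. The features compared share the same libraries.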

How the data were processed

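The series sequenced 4tU-labelled, total and unlabelled RNA of yeast. The submitters' processing notes name STAR 2.4.2a and build R64 without saying their role. The deposited table gives raw counts per feature and RPKM made by the authors, per the file headers; how reads were counted (tool, strand, reads that match both copies) is not stated there or in the labels. The 2 RPKM columns of unlabelled libraries, which name no sample, were not used. Of 12549 rows, 100 repeats were removed. The authors also deposited spliced fractions with a 95% interval and reads, splice-site scores, other intron values (length, ΔG), and a score per gene segment whose header says FPKM but whose scale was taken as arbitrary, so only ratios were used.

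Counts of all features were fitted with edgeR 4.0.16 in R 4.3.3 (filterByExpr, minimum count 10, TMM, quasi-likelihood test, Benjamini-Hochberg, threshold 0.05). The 3 labelling times and total RNA were fitted together (11513 features), and comparisons with unlabelled RNA over all 5 groups (11688). Unspliced fractions were fitted with limma 3.58.1 over 187 introns. Ratios within a library were tested by exact permutation in scipy 1.17.1. Alignments used biopython 1.88. The abundance and splicing fits were checked on simulated data. Alternatives were RLE factors, library size only, no filter, DESeq2 1.42.0, a logit scale, the timecourse block and leaving out libraries.

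The replicate numbers of labelled and total RNA are timecourse numbers in the titles, so they pair these libraries. Deviations from group means correlated at 0.253 to 0.877 within a timecourse (18 pairs) and −0.664 to 0.1 between timecourses (36 pairs). Whether timecourses were separate cultures is not stated, so p-values measure the spread between these libraries.

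Genes named are the 2 members, the 3 features most like each by root mean square difference, list counts, and the widest and narrowest 2 paralog pairs. One intron that this rule names is not reported here. Members and lists were chosen with earlier results of these data known.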

Additional observations from a re-analysis of the deposited data

How the results depend on the processing

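Apart from leaving out libraries, 111 of 130 recomputed values of the 2 genes kept their direction and their side of the threshold. This count includes comparisons far from the threshold and exact tests that could not pass it, so it is no measure of how firm the calls are. By library size alone RPS9A was called at log2 fold changes of 2.64, 2.41 and 1.90 against total RNA and 3.08, 2.84 and 2.33 against unlabelled RNA (1.5, 2.5 and 5 min), and RPS9B reversed to 0.31, 0.50 and 0.25, to 1.21, 1.39 (called, edgeR adjusted p = 0.0422) and 1.14, and for 5 against 1.5 min to −0.063; these shifts follow the median feature, which that scaling does not set near 0. DESeq2 called RPS9A at 1.5 min against total RNA (0.72) and RPS9A (0.86) and RPS9B (−1.17) against unlabelled RNA. With the timecourse as a replicate block, RPS9A at 1.5 min against total RNA (0.65) and its unspliced fraction at 5 against 1.5 min (−0.411) were called, and the difference in spliced fraction (−0.355, exact permutation p = 0.25) no longer was, since 3 timecourses cannot give less. The block changed no other call except the adjusted p of the copy ratio, given with that result.

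Leaving out 1 library, or 1 timecourse for splicing and the copy ratio, moved RPS9B against total RNA between −1.63 and −1.19 at 2.5 min and −1.70 and −1.26 at 5 min, against unlabelled RNA at 1.5 min between −1.77 (called without unlabelled library 2) and −0.56, at 2.5 min between −1.59 and −0.38 and at 5 min between −1.65 and −0.44, each nearest 0 without unlabelled library 1. RPS9B ranged from −0.13 to 0.23 for 5 against 1.5 min, from −0.31 to 0.070 for 5 against 2.5 min and from −1.01 to 0.20 for unlabelled against total RNA, and RPS9A from −0.18 to 0.012 for the last. The unspliced fraction of RPS9B ranged from −0.541 to −0.331 (call lost each time), that of RPS9A from −0.244 to −0.049 for 2.5 against 1.5 min and from −0.295 to −0.112 for 5 against 2.5 min, and the log2 copy ratio from 1.60 to 2.09, where 6 libraries against 2 cannot give an exact permutation p below 0.0714. The cause of the other lost calls was not tested.

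Features called against total RNA numbered 2084, 1733 and 1350 at the 3 times, 3544, 3186 and 2741 by DESeq2 and 6677, 6874 and 6111 by library size alone. Left-out libraries gave 1060 (without 1.5 min library 1) to 3782, 820 (without 2.5 min library 3) to 3388 and 559 (without 5 min library 1) to 2977, each highest without total RNA library 3. Against unlabelled RNA 560, 329 and 40 were called, 1863, 1461 and 1308 by DESeq2, 6015, 5984 and 5281 by library size alone, and 180 at 5 min with TMM factors computed without rRNA. Left-out libraries gave 0 to 742, 668 and 482, and 0 to 462 for unlabelled against total RNA. For 2.5 against 1.5 min, limma called 9 introns, 1 on the logit scale and 25 with the block. Each deposited interval of a labelled library belongs to that library alone and gives no spread between libraries. What error it covers is not stated. The 218 RPS9A counts in total RNA of timecourse 1 limit that library's ratio.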
